A study of Homo sapiens with 6 samples.

Results

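A set of 10 plasma membrane amino acid transporter genes was followed in 22RV1 prostate cancer cells: SLC3A2, SLC7A5, SLC7A8, SLC7A11, SLC7A1, SLC1A4, SLC1A5, SLC38A1, SLC38A2 and SLC43A1. They were picked by name as carriers of amino acids at the cell surface, and all 10 were listed among the 17811 genes of the deposited table and passed the filter on low values. The libraries came from poly(A)-selected RNA of 22RV1, a human line derived from a prostate carcinoma xenograft that proliferates without added androgen. There were 3 groups of 2 libraries each: cells stably expressing a hairpin against IMPA1 (shIMPA1), cells with a hairpin against IMPDH2 (shIMPDH2), and cells with a hairpin against luciferase, a gene they lack (shLuc), which served as the control. IMPA1 is inositol monophosphatase 1, which releases free inositol, and IMPDH2 is an IMP dehydrogenase that sets the pace of guanine nucleotide synthesis. All groups were kept in RPMI-1640 medium with fetal bovine serum and received no other treatment. A group may be a single stable line. The labels number its libraries but do not state whether these are separate cultures or carry separate hairpins. The 2 libraries of a group may thus be technical replicates, or may differ in their hairpin. A p-value here reflects the spread between libraries of the same group, pooled over all 3 groups except where groups were left out.

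Amino acids cross the plasma membrane through carriers with overlapping substrates. SLC3A2 (4F2hc, CD98) is a heavy chain with a single membrane span that carries no amino acid itself. It is joined by a disulfide bond to a light chain of the SLC7 family, which does the transport and needs the heavy chain to reach the cell surface. The light chains are exchangers, so they trade an amino acid inside the cell for one outside. Sodium-coupled carriers of the SLC38 family accumulate small neutral amino acids and glutamine. The exchangers can then trade these for leucine and other essential amino acids. Many of these genes are known targets of ATF4, the transcription factor of the amino acid response, which binds with C/EBP partners to a composite element in its target genes.

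Library depth over the listed genes ran from 20828900 to 27773294 reads. Counts of genes that differed by over 2-fold within a group were 934 for shIMPA1, 398 for shIMPDH2 and 266 for shLuc. IMPA1 had 957 and 1101 normalized reads in shIMPA1, 1795 and 1842 in shIMPDH2, and 1621 and 1331 in shLuc. IMPDH2 had 4435 and 5055 in shIMPA1, 2932 and 3166 in shIMPDH2, and 4269.9 and 5032 in shLuc. Each targeted transcript was thus moderately lower in both libraries of its own knockdown than in both shLuc libraries. Prostate luminal markers fixed for this check were all present (12 of 12), with summed levels of 106606 to 111166 normalized reads in shIMPA1, 107978 to 111028 in shIMPDH2 and 132806 to 133615 in shLuc. Of 6 basal markers, 5 were listed (TP63 was not), and their sums ran from 705 to 739 in shIMPA1, 845 to 850.2 in shIMPDH2 and 792 to 808 in shLuc. The basal keratin KRT5 separated the shIMPA1 libraries, with 0 normalized reads in replicate 1 and 88.9 in replicate 2, against 79.7 and 84.4 in shIMPDH2 and 0.900 and 1.75 in shLuc. KRT14 followed the same pattern, with 1.80 and 54.4 in shIMPA1, 55.5 and 37.1 in shIMPDH2, and 0 and 0.875 in shLuc. KRT15 had 10.8 and 26.7 in shIMPA1, 49.7 and 76.5 in shIMPDH2, and 0 and 3.50 in shLuc. The other two listed basal markers were highest in shLuc and, within shIMPA1, higher in replicate 1: NGFR had 52.1 and 24.2 in shIMPA1, 27.7 and 31.5 in shIMPDH2, and 90.0 and 83.1 in shLuc, and DST had 641 and 545 in shIMPA1, 638 and 615 in shIMPDH2, and 701 and 718 in shLuc. The summed stromal markers ran from 313 to 439.8 in shIMPA1, 277 to 281 in shIMPDH2 and 585 to 623 in shLuc, with COL1A2 and PDGFRB not listed. The 4 listed neuroendocrine markers summed to 11693 to 12945, 12341 to 13109.5 and 12824 to 13281 in the same groups. The leukocyte markers PTPRC, CD3E and CD14 were not listed. The part of these markers in the transporter results was not tested. For the transporters of the set, calls that are lost without 1 library are named as such. Calls of genes outside the set, other transporters included, were not checked in that way. In bulk RNA, fewer cells of a type and less RNA per cell cannot be told apart.

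The sequences below show where the composite element lies at the starts of these genes, since the element is what the family's known regulator binds. RefSeq promoter windows, each from 250 bases before to 50 after an annotated start (GRCh38.p14), were at hand for 9 of the 10 genes, 19 windows in all; SLC7A11 had no entry. The C/EBP-ATF composite element was searched as TGATGNAA on both strands. It was found in 5 of the 19 windows, each of a different gene, and in 3.62% of all 35116 windows of that length. Each stretch of 30 bases is on the strand of its gene, with the match in capitals. The SLC3A2 and SLC1A4 matches lie on the opposite strand, so the capitals there show the element reversed and complemented. The stretches are chr13:29595663-29595692 (minus strand) for SLC7A1, chr11:62881719-62881748 (plus strand) for SLC3A2, chr2:64989381-64989410 (plus strand) for SLC1A4, chr19:46784893-46784922 (minus strand) for SLC1A5 and chr12:46266502-46266531 (minus strand) for SLC38A1.
SLC7A1: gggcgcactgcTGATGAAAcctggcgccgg
SLC3A2: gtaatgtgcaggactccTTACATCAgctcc
SLC1A4: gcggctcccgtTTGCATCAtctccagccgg
SLC1A5: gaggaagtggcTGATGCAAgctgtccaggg
SLC38A1: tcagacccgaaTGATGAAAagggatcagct
In SLC7A1 the match begins 8 bases after the annotated start and in SLC3A2 38 bases after an inner start. In SLC1A4 it begins 7 bases and in SLC1A5 97 bases before an inner start, and in SLC38A1 it begins 4 bases before an inner RefSeq start whose following bases were found in no GENCODE 29 transcript of the gene.

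A second set of stretches, the 140 bases before the outermost annotated start, is shown for the gene with the largest rise, SLC7A8, and for the other neutral amino acid carriers of the leucine-transporting type, SLC7A5 and SLC43A1. The capitals mark the E-box CACGTG, a palindrome bound by MYC and by the MiT/TFE factors. That hexamer was found in 4 of the 19 windows, in an inner window of SLC7A8 and in windows of SLC7A5, SLC1A5 and SLC43A1, and in 7.26% of all windows. The SLC7A8 stretch (chr14:23183675-23183814, minus strand) holds none of the 3 motifs searched, and its inner match begins 129 bases before another start. The other stretches are chr16:87869508-87869647 for SLC7A5 and chr11:57515787-57515926 for SLC43A1, both on the minus strand.
SLC7A8: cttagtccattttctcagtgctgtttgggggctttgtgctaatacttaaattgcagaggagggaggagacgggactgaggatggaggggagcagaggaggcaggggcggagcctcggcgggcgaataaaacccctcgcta
SLC7A5: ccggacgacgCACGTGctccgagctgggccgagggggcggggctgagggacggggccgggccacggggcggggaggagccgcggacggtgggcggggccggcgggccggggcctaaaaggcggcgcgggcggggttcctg
SLC43A1: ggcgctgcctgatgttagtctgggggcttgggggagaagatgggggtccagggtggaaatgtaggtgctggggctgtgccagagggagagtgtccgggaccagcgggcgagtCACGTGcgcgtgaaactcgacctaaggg
Another motif, the core of the antioxidant response element bound by NRF2 (TGACNNNGC, both strands), was found in windows of SLC7A5, SLC7A1, SLC3A2 and SLC1A5, 4 of 19, and in 13.35% of all windows. A match describes letters and is neither a binding site nor a cause.

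In shIMPA1 cells, 7 of the 10 transporter transcripts rose and 1 fell against shLuc, while in shIMPDH2 cells 1 rose and 1 fell. SLC7A8 rose 28.1-fold in shIMPA1, SLC43A1 3.42-fold, the heavy chain SLC3A2 3.27-fold and SLC7A5 2.14-fold. SLC7A11, SLC1A5 and SLC7A1 rose less, by 1.72-fold, 1.62-fold and 1.45-fold, and SLC38A2 fell to 6588 normalized reads on average in shIMPA1, against 11619.6 in shLuc. Calls are limma adjusted p-values under 0.05 over all 17742 genes tested, by which 30.2% of genes were called in shIMPA1 against shLuc (14.0% higher and 16.2% lower). In shIMPDH2 against shLuc 17.0% of genes were called (7.86% higher and 9.15% lower). The counts of calls depend on the spread pooled over the 3 groups. With only the 2 groups compared in a fit, 5 of the 10 and 4085 of all genes were called in shIMPA1. The same kind of fit called 4 of the 10 and 6382 of all genes in shIMPDH2. The rises of SLC7A11, SLC7A1 and SLC1A5 in shIMPA1 did not pass in that fit. The median log2 fold change of the 10 genes was 0.67 in shIMPA1, against 0.02 over all genes, and -0.02 in shIMPDH2, against -0.01 over all genes. Both libraries of the knockdown lay outside the range of the shLuc libraries for 8 of 10 genes in shIMPA1 and 8 of 10 in shIMPDH2, where all genes gave 66.4% and 66.2%. Both comparisons share the shLuc libraries. With 2 libraries against 2, an exact permutation test of a single gene cannot give a two-sided p below 0.333.

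**Figure D1:**
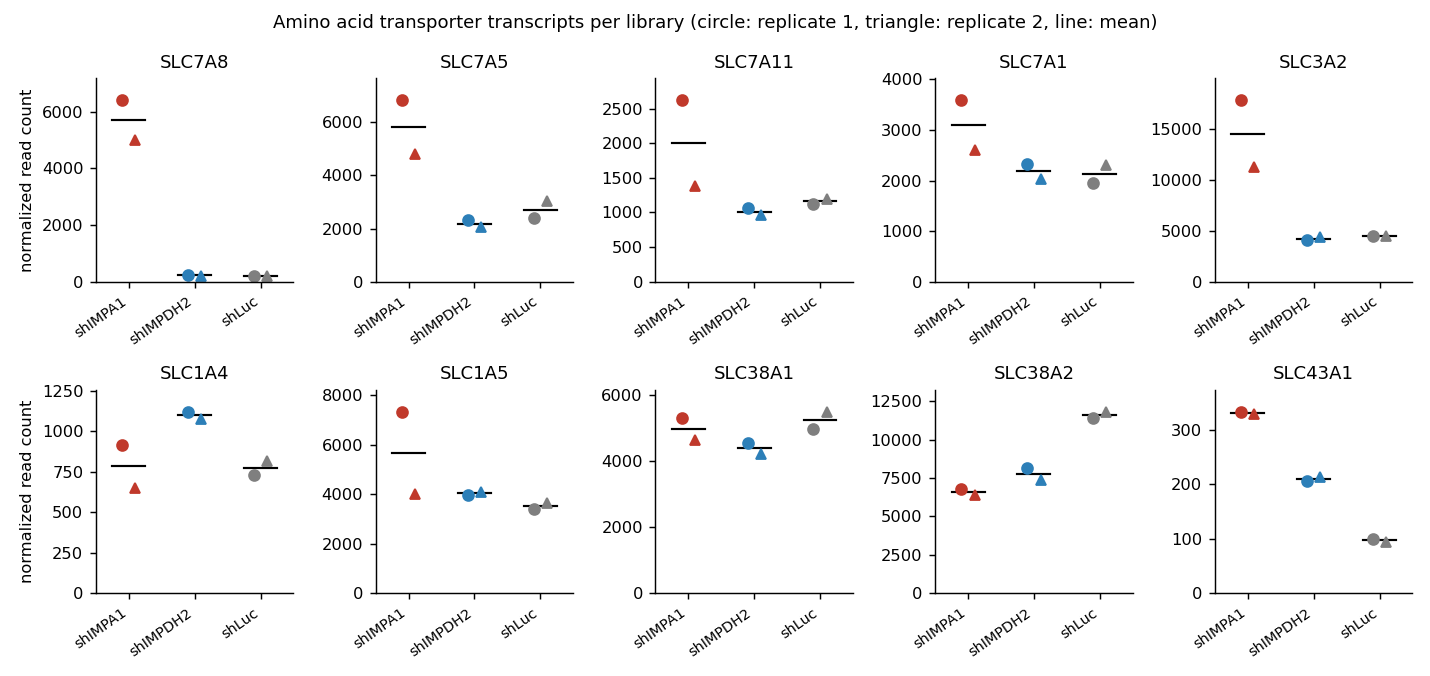
Normalized read counts (vertical axes, each starting at 0) of the 10 transporter genes in each library, by group. Circles are replicate 1, triangles replicate 2 and lines the group means. SLC7A8 and SLC3A2 stand far above the other groups in both shIMPA1 libraries, SLC38A2 is highest in shLuc, and SLC43A1 is highest in shIMPA1 and lowest in shLuc.

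The heavy chain SLC3A2 (ENSG00000168003, GRCh38 chr11:62856102-62888875, plus strand) had 17781 and 11242 normalized reads in shIMPA1, 4049 and 4375 in shIMPDH2, and 4439 and 4444 in shLuc. Both shIMPA1 libraries lay far above the other 4, although replicate 1 held 1.58 times as many reads as replicate 2. The shIMPDH2 libraries lay just below shLuc. SLC3A2 rose by a log2 fold change of 1.67 in shIMPA1 (SE 0.18, limma adjusted p = 0.000108). In shIMPDH2 the difference was -0.08 (95% interval -0.48 to 0.32, limma adjusted p = 0.807).

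SLC7A8 (LAT2, ENSG00000092068, GRCh38 chr14:23125295-23183674, minus strand), a light chain that exchanges small and large neutral amino acids, had 6400.3 and 5001 normalized reads in shIMPA1, 240.3 and 210.3 in shIMPDH2, and 191 and 214 in shLuc. Every shIMPA1 value was more than 20 times every other, whereas the shIMPDH2 and shLuc libraries overlapped. SLC7A8 rose in shIMPA1 by a log2 fold change of 4.80 (SE 0.15, limma adjusted p = 1.45e-08), the 11th highest of all genes tested. In shIMPDH2 it was 0.15 (95% interval -0.18 to 0.49, limma adjusted p = 0.532). Directly between the knockdowns it was 4.65 (SE 0.15, limma adjusted p = 8.28e-08). Among 13651 genes with a symbol and a mean of at least 50, those whose pattern over the 6 libraries lay nearest to SLC7A8 were CMKLR2, STK32A, LAMP3, C2CD4A and CACNA1H. Their Euclidean distances ran from 1.67 to 1.87 on the log2 scale after subtraction of the shLuc mean. LAMP3, a lysosomal membrane protein, had 330.3 and 389 normalized reads in shIMPA1, 35.8 and 11.2 in shIMPDH2, and 22.5 and 24.5 in shLuc. No transporter of the set came as near, the closest being SLC3A2 at 4.45 and SLC43A1 at 4.51.

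SLC7A5 (LAT1, ENSG00000103257, GRCh38 chr16:87830023-87869488, minus strand), the light chain that imports leucine and other large neutral amino acids, had 6833 and 4790.2 normalized reads in shIMPA1, 2327 and 2046 in shIMPDH2, and 2405 and 3029 in shLuc. All shIMPA1 values were above all shLuc values, and both shIMPDH2 values were below them. SLC7A5 rose by a log2 fold change of 1.08 in shIMPA1 (SE 0.17, limma adjusted p = 0.00117), and its value in shIMPDH2 was -0.31 (SE 0.17, limma adjusted p = 0.256). With the shIMPA1 libraries left out, the same shIMPDH2 difference passed, at a limma adjusted p of 0.0145. The pseudogene copy SLC7A5P1 had 53.0 and 73.3 normalized reads in shIMPA1, 68.2 and 93.3 in shIMPDH2, and 101 and 80.5 in shLuc, and reads that map equally to both were left out by the counting of unique reads, so the count of SLC7A5 is uncertain by those reads. An antisense gene, not listed in the table, also shares 271 exonic bases with SLC7A5.

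SLC7A11 (xCT, ENSG00000151012, GRCh38 chr4:138164097-138242349, minus strand), which imports cystine in exchange for glutamate, had 2623 and 1383 normalized reads in shIMPA1, 1063 and 964 in shIMPDH2, and 1126 and 1201 in shLuc. Replicate 1 of shIMPA1 stood alone, at 1.90 times replicate 2, and replicate 2 lay only slightly above shLuc. On the log2 scale, SLC7A11 changed by 0.71 in shIMPA1 (SE 0.23, limma adjusted p = 0.0365), and its difference was -0.20 in shIMPDH2 (SE 0.23, limma adjusted p = 0.588). Without shIMPA1 replicate 1 it was 0.25 and the call was lost (limma adjusted p = 0.110), and it was 1.17 without replicate 2. An antisense transcript, SLC7A11-AS1, shares 865 exonic bases with it, and reads of both strands cannot be told apart if the libraries kept no strand.

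Read as levels per transcript length, the light chains shifted toward SLC7A8 in shIMPA1. Here the level is in TPM, the reads of a gene per exon length, scaled to the same total in every library, and 5 of 6 known light chains of SLC3A2 were listed (SLC7A10 was not). SLC7A8 made up 38.0% and 41.1% of the summed light chain level in shIMPA1, 5.93% and 5.82% in shIMPDH2, and 4.63% and 4.32% in shLuc. The share of SLC7A5 was 51.2% and 49.7% in shIMPA1, 72.5% and 71.5% in shIMPDH2, and 73.8% and 77.1% in shLuc. The SLC7A8 share was thus several times higher in both shIMPA1 libraries, and that of SLC7A5 lower, with no overlap between groups. SLC7A11 made up 9.66% and 7.06% in shIMPA1, 16.3% and 16.6% in shIMPDH2, and 17.0% and 15.03% in shLuc, although its own level was higher in shIMPA1. SLC7A6 made up 1.00% and 1.83% in shIMPA1, 4.62% and 5.43% in shIMPDH2, and 4.14% and 3.05% in shLuc, and SLC7A7 less than 1% in every library. The summed light chain level was 402 and 290.0 TPM in shIMPA1, 94.6 and 78.7 TPM in shIMPDH2, and 88.8 and 112 TPM in shLuc. Set against the heavy chain, this sum gave ratios of 0.820 and 0.935 in shIMPA1, 0.864 and 0.714 in shIMPDH2, and 0.802 and 0.965 in shLuc. That ratio overlapped between all groups, while the heavy chain and the light chain sum were each higher in shIMPA1. These shares and ratios are descriptions and were not tested.

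**Figure D2:**
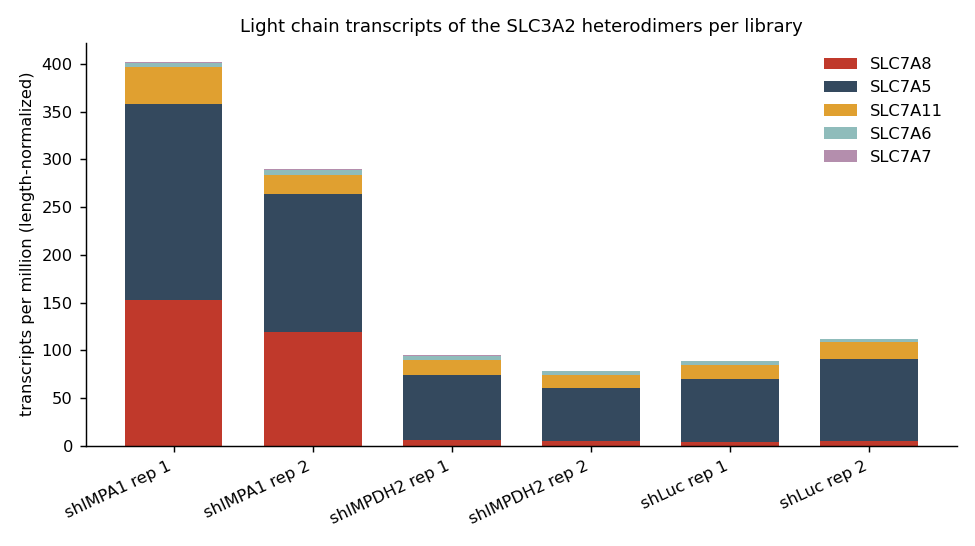
Length-normalized level (TPM, stacked from 0) of the 5 listed light chains that pair with SLC3A2, in each library. The SLC7A8 band is broad in both shIMPA1 libraries (38.0% and 41.1% of the stack) and thin in shIMPDH2 and shLuc, and the whole stack is highest in shIMPA1.

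SLC7A1 (CAT1, ENSG00000139514, GRCh38 chr13:29509410-29595688, minus strand), the main carrier of arginine and lysine in many cells, needs no heavy chain. It had 3590.1 and 2613 normalized reads in shIMPA1, 2332 and 2028 in shIMPDH2, and 1958 and 2308 in shLuc. The shIMPA1 libraries lay above both other groups, which overlapped each other. SLC7A1 rose in shIMPA1 by 0.53 on the log2 scale (SE 0.16, limma adjusted p = 0.0298). Without shIMPA1 replicate 1 it was 0.30, just outside the threshold (limma adjusted p = 0.0501), and in shIMPDH2 it was 0.03 (limma adjusted p = 0.909). The related cationic carrier SLC7A2 (CAT2), no member of the set, moved in opposite directions in the knockdowns. It averaged 3353 ± 409 normalized reads in shIMPA1, 618 ± 13.3 in shIMPDH2 and 1612 ± 97.1 in shLuc (SD, n = 2 each). Between the knockdowns SLC7A2 differed by a log2 fold change of 2.43 (limma adjusted p = 9.35e-07).

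Of the SLC1 exchangers, SLC1A5 (ASCT2, ENSG00000105281, GRCh38 chr19:46774883-46788594, minus strand) is the main glutamine carrier of many cancer cells. It had 7336 and 4010.2 normalized reads in shIMPA1, 3981 and 4097 in shIMPDH2, and 3386 and 3622 in shLuc. Replicate 1 of shIMPA1 was far above every other library, and replicate 2 lay within the shIMPDH2 range. The log2 fold change in shIMPA1 was 0.63 (SE 0.22, limma adjusted p = 0.0477), and without replicate 1 it was 0.20 (limma adjusted p = 0.242). Directly between the knockdowns it was 0.43 (limma adjusted p = 0.172), but 0.86 without shIMPA1 replicate 2 and -0.01 without replicate 1. An antisense gene with 21 to 39 reads a library overlaps 23.4% of its exonic bases.

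SLC1A4 (ASCT1, ENSG00000115902, GRCh38 chr2:64988477-65023865, plus strand), a carrier of alanine, serine and cysteine, was highest in shIMPDH2. It had 916 and 649.7 normalized reads in shIMPA1, 1123 and 1079.7 in shIMPDH2, and 733 and 819.9 in shLuc. Both shIMPDH2 libraries lay above the other 4, and the shIMPA1 libraries lay on either side of shLuc. The log2 fold change was -0.01 in shIMPA1 (limma adjusted p = 0.981) and 0.51 in shIMPDH2 (SE 0.16, limma adjusted p = 0.0524), just outside the threshold. It passed for shIMPDH2 with edgeR (adjusted p = 0.0489) and with the shIMPA1 libraries left out (limma adjusted p = 2.94e-05). Between the knockdowns SLC1A4 was lower in shIMPA1 by a log2 fold change of -0.51 (SE 0.16, limma adjusted p = 0.0375), a call that was lost without any 1 library other than shIMPA1 replicate 1. It was -0.26 without shIMPA1 replicate 2 (limma adjusted p = 0.119), and the adjusted p was 0.190 and 0.166 without either shIMPDH2 library and 0.0723 and 0.0725 without either shLuc library.

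The sodium-coupled carrier SLC38A2 (SNAT2, ENSG00000134294, GRCh38 chr12:46358189-46372867, minus strand) imports small neutral amino acids and is known to be induced when cells lack them. Its transcript was the highest of the 10 in shLuc and was lower in both knockdowns. It had 6808 and 6369 normalized reads in shIMPA1, 8158 and 7335 in shIMPDH2, and 11413 and 11826.5 in shLuc. The shLuc libraries lay well above the rest, and the shIMPA1 libraries lay lowest. Log2 fold changes of SLC38A2 were -0.82 in shIMPA1 (SE 0.12, limma adjusted p = 0.000821) and -0.59 in shIMPDH2 (SE 0.12, limma adjusted p = 0.00915). The shIMPDH2 call was lost without either shIMPDH2 or either shLuc library (limma adjusted p between 0.0562 and 0.134). Between the knockdowns it was -0.23 (95% interval -0.51 to 0.04, limma adjusted p = 0.191).

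The neighbouring gene SLC38A1 (SNAT1, ENSG00000111371, GRCh38 chr12:46183063-46270017, minus strand), a carrier of glutamine, was called in none of the comparisons. It had 5326 and 4643 normalized reads in shIMPA1, 4555 and 4219.9 in shIMPDH2, and 4991 and 5508 in shLuc. Values of shIMPA1 and shLuc overlapped, and both shIMPDH2 values lay below them. The log2 fold change was -0.08 in shIMPA1 (95% interval -0.35 to 0.20, limma adjusted p = 0.683) and -0.26 in shIMPDH2 (95% interval -0.53 to 0.02, limma adjusted p = 0.185).

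SLC43A1 (LAT3, ENSG00000149150, GRCh38 chr11:57484534-57515786, minus strand) is a facilitative carrier of leucine and other large neutral amino acids that needs no heavy chain and was first described in prostate cancer. It was the member of the set that rose in both knockdowns. It had 333 and 329 normalized reads in shIMPA1, 206 and 214 in shIMPDH2, and 99.0 and 94.5 in shLuc. The groups were fully separated, and its libraries agreed closely within each group. SLC43A1 rose by log2 fold changes of 1.76 in shIMPA1 (SE 0.16, limma adjusted p = 2.44e-05) and 1.11 in shIMPDH2 (SE 0.16, limma adjusted p = 0.000855). It was higher in shIMPA1 than in shIMPDH2 by 0.66 (SE 0.16, limma adjusted p = 0.0110), a call that was lost without either shIMPDH2 library (limma adjusted p = 0.0901 and 0.0811).

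**Figure D3:**
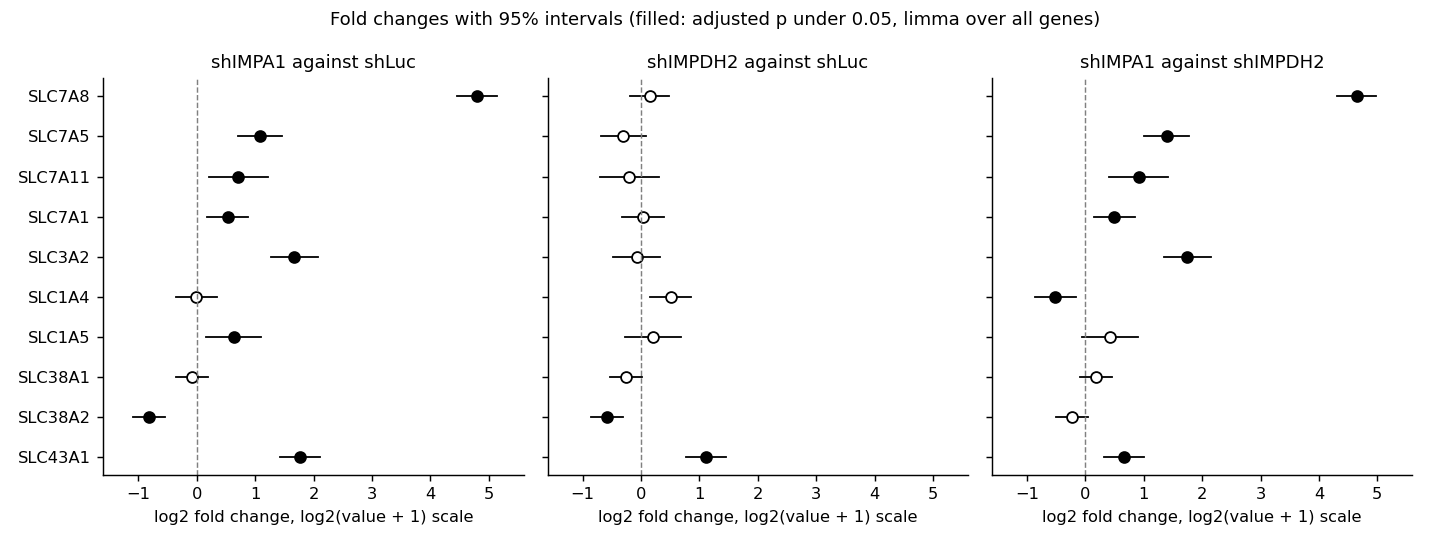
Log2 fold changes (horizontal axes, log2(value + 1) scale) of the 10 transporter genes in the 3 comparisons, with 95% intervals from limma; filled points have an adjusted p under 0.05 over all genes. SLC7A8 stands at 4.80 and 4.65 in the shIMPA1 comparisons and at 0.15 in shIMPDH2 against shLuc, where SLC43A1 and SLC38A2 are the filled points.

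Between the knockdowns themselves, 7 of the 10 genes differed, where 26.1% of all genes were called (12.6% higher in shIMPA1 and 13.5% lower). SLC7A8, SLC3A2, SLC7A5, SLC7A11, SLC43A1 and SLC7A1 were higher in shIMPA1, with log2 fold changes of 0.49 to 4.65, and SLC1A4 was lower. Groups did not overlap for 9 of the 10, where all genes gave 63.9%. The SLC7A1 call was close to the threshold (limma adjusted p = 0.0430) and was lost without any 1 library other than shIMPA1 replicate 2. It was 0.26 without shIMPA1 replicate 1 (limma adjusted p = 0.0931), and the adjusted p was 0.110 and 0.287 without either shIMPDH2 library and 0.0731 and 0.0733 without either shLuc library. For SLC7A11 the difference between the knockdowns was 0.91 (limma adjusted p = 0.0143), with 0.45 without shIMPA1 replicate 1 and 1.37 without replicate 2, and its call was lost without either shIMPDH2 library (0.0770 and 0.130). The sum of the 10 transporters was 57946 and 41029.9 normalized reads in shIMPA1, 28034 and 26569 in shIMPDH2, and 30739.9 and 33067 in shLuc.

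The order of the levels per transcript length also differed between groups. In shIMPA1, SLC3A2 came first at 400.4 ± 128 TPM, followed by SLC1A5 at 243 ± 101, SLC7A5 at 175 ± 43.6, SLC38A2 at 143 ± 6.79 and SLC7A8 at 136 ± 23.7 (SD, n = 2 each). Each of these overlapped the next, whereas SLC7A8 lay clear of SLC38A1 at 71.1 ± 6.93 TPM. In shIMPDH2, SLC1A5 at 164 ± 4.80 and SLC38A2 at 159 ± 19.8 TPM led with overlapping values, then came SLC3A2 at 110 ± 0.555 TPM, and SLC7A8 came last at 5.10 ± 0.731 TPM (SD, n = 2 each). In shLuc, SLC38A2 led at 233 ± 13.7 TPM, clear of SLC1A5 at 139 ± 11.3 and SLC3A2 at 113 ± 3.90 TPM, and SLC7A8 at 4.48 ± 0.518 and SLC43A1 at 3.62 ± 0.00239 TPM came last (SD, n = 2 each). Neighbours with overlapping values in shLuc were SLC7A5 with SLC38A1, and SLC7A11 with SLC1A4.

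Within shIMPA1, all 10 transporters were higher in replicate 1 than in replicate 2, where 51.9% of all genes tested were. The ratio between these libraries ran from 1.01 for SLC43A1 to 1.90 for SLC7A11, and it was 1.83 for SLC1A5. In shLuc, 9 of 10 were higher in replicate 2, with ratios up to 1.26, and in shIMPDH2 7 of 10 were higher in replicate 1, with ratios up to 1.15. SLC7A8, SLC7A5, SLC3A2 and SLC43A1 rose and SLC38A2 fell in shIMPA1 with either shIMPA1 library left out, whereas SLC7A11, SLC7A1 and SLC1A5 lost their call without replicate 1. Those 3 genes also lost it without either shLuc library and without either shIMPDH2 library. By distance over the 6 libraries, the closest pair of the set was SLC7A1 with SLC1A5 at 0.45, followed by SLC7A11 with SLC7A1 at 0.54.

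**Figure D4:**
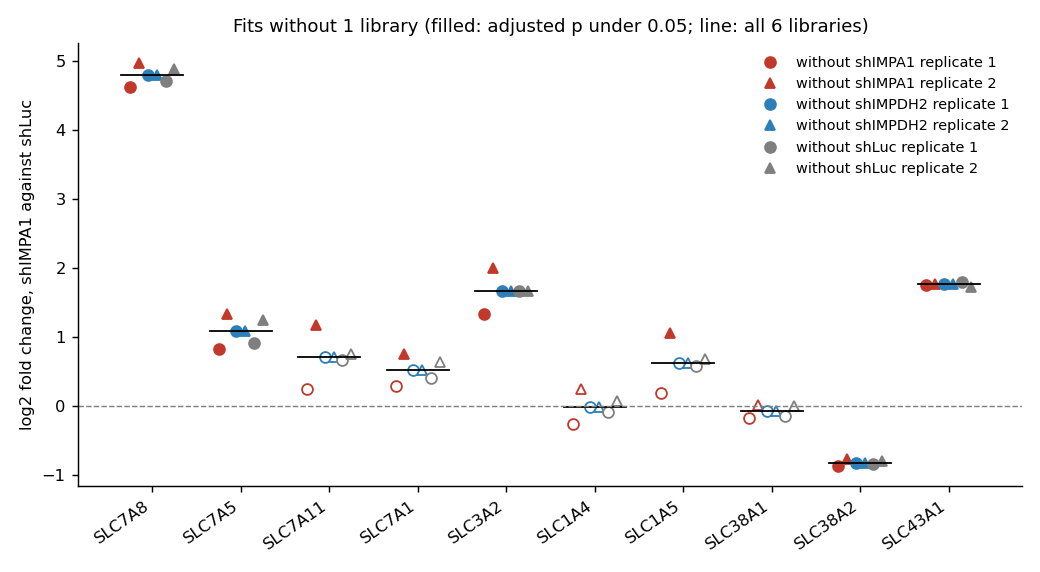
Log2 fold change of shIMPA1 against shLuc (vertical axis) for the 10 transporter genes with 1 library left out at a time; filled points have a limma adjusted p under 0.05 and lines mark the value with all 6 libraries. SLC7A8, SLC7A5, SLC3A2, SLC43A1 and SLC38A2 are filled throughout, while SLC7A11, SLC7A1 and SLC1A5 are filled only without shIMPA1 replicate 2.

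Other plasma membrane amino acid transporters were spread in both directions. Of 34 listed, 17 were in the table and tested. In shIMPA1, 5 rose and 6 fell (median log2 fold change -0.07, against 0.02 over all genes), and in shIMPDH2 3 rose and 7 fell (median -0.34, against -0.01). Over all genes 14.0% rose and 16.2% fell in shIMPA1, and 7.86% rose and 9.15% fell in shIMPDH2. SLC43A2 (LAT4), the relative of SLC43A1, averaged 377 ± 51.0 normalized reads in shIMPA1, 229.5 ± 15.8 in shIMPDH2 and 155 ± 22.0 in shLuc (SD, n = 2 each), with log2 fold changes of 1.28 (limma adjusted p = 0.000404) and 0.57 (0.0433). SLC6A6, the taurine transporter, fell in both knockdowns, to 332 ± 8.16 normalized reads in shIMPA1 and 281 ± 17.4 in shIMPDH2, against 800.2 ± 67.5 in shLuc (SD, n = 2 each). SLC38A4, a relative of SLC38A2, also fell in both, by log2 fold changes of -1.34 (limma adjusted p = 0.000307) and -1.13 (0.00139). The proton-coupled carrier SLC36A1, which also sits on lysosomes, rose in shIMPDH2 to 1250.1 ± 163 normalized reads, against 441 ± 62.7 in shLuc (SD, n = 2 each; log2 fold change 1.50, limma adjusted p = 0.000109), while in shIMPA1 it stood at a log2 fold change of 0.24 (limma adjusted p = 0.257). SLC6A15, a sodium-coupled carrier of neutral amino acids, fell in shIMPDH2 by 1.01 on the log2 scale (limma adjusted p = 0.000772).

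**Figure D5:**
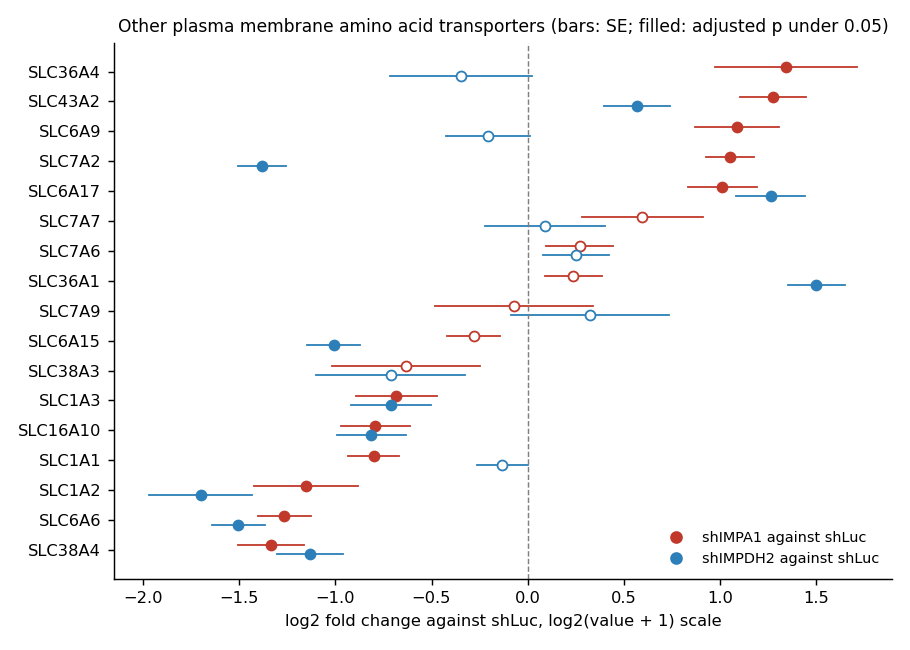
Log2 fold changes (horizontal axis, log2(value + 1) scale, bars are SE) of the 17 other plasma membrane amino acid transporters in shIMPA1 (red) and shIMPDH2 (blue) against the same shLuc libraries; filled points have a limma adjusted p under 0.05. SLC7A2 stands on opposite sides of 0, SLC36A1 is filled for shIMPDH2 alone, and SLC38A4 and SLC6A6 lie below 0 in both.

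Among 11 tested carriers of lysosomes and vesicles, 2 rose and 1 fell in shIMPA1, and 3 rose and 2 fell in shIMPDH2. Over all genes, 30.2% and 17.0% were called. SLC36A1, described above, is in this list too, so its rise in shIMPDH2 is counted in both lists. SLC38A7, which releases glutamine from lysosomes, rose in both, by log2 fold changes of 0.76 (limma adjusted p = 0.00402) and 0.80 (0.00562), and SLC66A1, which releases cationic amino acids, by 0.62 (0.00577) and 0.69 (0.00566). SLC17A6, a vesicular glutamate carrier of neurons, fell to 15.6 ± 12.3 normalized reads in shIMPA1 and 13.7 ± 3.48 in shIMPDH2, against 163 ± 3.87 in shLuc (SD, n = 2 each). SLC17A7, its relative, fell in shIMPDH2 by 0.83 on the log2 scale (limma adjusted p = 0.00566).

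Genes of the amino acid response, in which the kinase GCN2 senses uncharged tRNA and raises translation of ATF4, were read as a list beside the transporters. Of 20 tested, 12 rose and 1 fell in shIMPA1 (median log2 fold change 0.66), against 1 and 4 in shIMPDH2 (median -0.0048), and 12 were higher and 1 lower between shIMPA1 and shIMPDH2. All genes gave 14.0% higher and 16.2% lower in shIMPA1, 7.86% and 9.15% in shIMPDH2, and 12.6% and 13.5% between them. DDIT3 (CHOP), a stress-induced transcription factor, averaged 10414 ± 1489.5 normalized reads in shIMPA1, 2525 ± 293 in shIMPDH2 and 1712 ± 187 in shLuc (SD, n = 2 each). TRIB3, a pseudokinase that feeds back on ATF4, averaged 16487 ± 1617 in shIMPA1, 4026 ± 167 in shIMPDH2 and 5424 ± 164 in shLuc (SD, n = 2 each). DDIT3 was thus higher in both knockdowns (log2 fold changes 2.60 and 0.56, limma adjusted p = 1.04e-06 and 0.0229), while TRIB3 rose in shIMPA1 and fell in shIMPDH2 (1.60 and -0.43, limma adjusted p = 1.17e-05 and 0.0380). CHAC1, which degrades glutathione, rose in shIMPA1 by 1.93 (limma adjusted p = 8.12e-05), and PPP1R15A, which directs dephosphorylation of eIF2α, by 1.24 (0.000152). DDIT4, an inhibitor of mTORC1, fell in shIMPDH2 (-0.83, limma adjusted p = 0.00191), as did PPP1R15B (-0.45, 0.0353). ATF4 itself, chosen after its values were seen, averaged 30544 ± 1367 normalized reads in shIMPA1, 16920 ± 1491 in shIMPDH2 and 19370.3 ± 1159 in shLuc (SD, n = 2 each), with log2 fold changes of 0.66 (limma adjusted p = 0.00593) and -0.20 (0.376). ASNS, asparagine synthetase, also chosen after its values were seen, had a log2 fold change of 0.42 in shIMPA1 that did not pass (limma adjusted p = 0.149). The 1 gene of the list that fell in shIMPA1 was EIF2AK4, the gene of GCN2, likewise named after its values were seen. Its log2 fold changes were -0.42 in shIMPA1 (limma adjusted p = 0.0181) and -0.37 in shIMPDH2 (0.0462).

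A list of 35 genes covered amino acid sensing and its signalling to mTORC1, with subunits of mTORC1 such as MTOR included. Of these, 8 rose and 1 fell in shIMPA1, and 5 rose and 1 fell in shIMPDH2. With both directions pooled, the share called was no larger than the 30.2% of all genes in shIMPA1 and near the 17.0% in shIMPDH2. By direction, all genes gave 14.0% higher and 16.2% lower in shIMPA1, and 7.86% higher and 9.15% lower in shIMPDH2. SESN2, which binds leucine, averaged 2839 ± 229 normalized reads in shIMPA1, 1096 ± 5.04 in shIMPDH2 and 840.1 ± 70.5 in shLuc (SD, n = 2 each), a log2 fold change of 1.76 in shIMPA1 (limma adjusted p = 5.13e-06). FLCN, which acts on the Rag GTPases, rose by 1.18 in shIMPA1 (limma adjusted p = 0.000589), RRAGC, one of those GTPases, by 0.88 (0.00251), and FNIP1, the partner of FLCN, by 0.54 (0.0218). In shIMPDH2, SESN3 fell by 1.08 on the log2 scale (limma adjusted p = 0.000220), while MIOS rose by 0.81 (0.00246), RRAGB by 0.69 (0.0189) and SESN1 by 0.52 (0.0246).

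A list of 29 tested enzymes held those that act on imported amino acids or later in their pathways. Of these, 4 rose and 2 fell in shIMPA1, and 6 rose and 1 fell in shIMPDH2. Over all genes, 30.2% and 17.0% were called. BCAT1, which transaminates leucine, isoleucine and valine, averaged 64.7 ± 30.4 normalized reads in shIMPA1, 34.8 ± 1.46 in shIMPDH2 and 129.96 ± 4.31 in shLuc (SD, n = 2 each), falling in both. GOT1, GLUD1 and CBS rose in shIMPA1 by log2 fold changes of 0.57, 0.51 and 0.72 (limma adjusted p = 0.00583, 0.0126 and 0.0191). AMD1, GCLC and SMS, of the polyamine and glutathione pathways, rose in shIMPDH2 by 0.62, 0.58 and 0.55 (limma adjusted p = 0.00553, 0.0116 and 0.0124).

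Of 15 tested factors of transporter turnover and trafficking, 5 rose and 3 fell in shIMPA1, and 1 rose in shIMPDH2, where all genes gave 30.2% and 17.0% called. NEDD4L, a ubiquitin ligase of membrane carriers, rose in shIMPA1 by a log2 fold change of 0.64 (limma adjusted p = 0.00285), PRKCA by 0.81 (0.00419) and the arrestin TXNIP by 0.74 (0.00489), while the kinase SGK3 fell by 0.87 on the log2 scale (0.00413). CD44, a surface protein known to stabilize SLC7A11, rose in both knockdowns, with 295.6 ± 98.1 normalized reads in shIMPA1, 294 ± 3.95 in shIMPDH2 and 149 ± 13.3 in shLuc (SD, n = 2 each; limma adjusted p = 0.00678 for shIMPA1 and 0.00985 for shIMPDH2).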

How the data were processed

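Each deposited signal value is a gene's read count after the authors' division by a size factor of its library, per the file headers and the values. Per the submitters' processing notes, Trimmomatic 0.36, STAR 2.5.2b, Subread 1.5.2 and DESeq2 were used with GRCh38. Only uniquely placed exonic reads were counted, by strand if the kit kept it, per the labels' protocols; the annotation release is not given in the sources used here. The authors' deposited log2 fold change, p-value and adjusted p-value columns name no comparison and were not used.

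Dividing by the worth of a read gave whole reads for 99.98% to 100% of genes per library (tolerance 0.05 reads), so the depth is known. A gene was tested if at least 2 libraries reached a value of 10, which kept 17742 of 17811. The test was limma (3.58.1, in R 4.3.3) on log2(value + 1), with a mean-variance trend and all 6 libraries in a single model of 3 groups. P-values were Benjamini-Hochberg adjusted over all genes tested and called under 0.05. Log2 fold changes use log2(value + 1) and so understate low genes; folds without log2 are ratios of group means. Alternatives were other pseudocounts, no filter, no trend, TMM scaling, only the 2 groups compared, a replicate block, each library left out, and edgeR 4.0.16 and DESeq2 1.42.0 on the recovered reads. Recomputed size factors differed from the deposited ones by at most 0.0113 in log2. The limma step was tested on simulated data in which a gene had the same spread in all groups. That simulation does not cover a spread that differs between groups.

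TPM, coordinates and overlaps used the exons of GENCODE 29, and sequences came from RefSeq (GRCh38.p14). Symbols came from a names table for 16275 identifiers and from GENCODE for 1475, and 61 had none. From each gene list, up to 4 called genes with the smallest adjusted p per knockdown were named. The members, lists and rules were chosen with earlier results of these data known, so no list was tested as a set and none is independent support. Values of some cell type markers are not reported here.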

Additional observations from a re-analysis of the deposited data

How the results depend on the processing

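Of 450 values (30 gene-by-comparison results under 15 alternatives), 388 kept their direction and their side of the threshold, 44 lost the call, 10 gained it and 8 changed sign; the cause was not tested. The rises of SLC7A8, SLC3A2, SLC7A5 and SLC43A1 and the fall of SLC38A2 in shIMPA1 kept their call in all 15, with a highest adjusted p of 0.0291 (limma, edgeR or DESeq2), as did the rise of SLC43A1 in shIMPDH2 (at most 0.0253). SLC7A11, SLC7A1 and SLC1A5 in shIMPA1 lost theirs in 7 of 15. The fall of SLC38A2 in shIMPDH2 lost its call without either shLuc or either shIMPDH2 library (adjusted p 0.0562 to 0.134).

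Without the mean-variance trend, 5, 2 and 4 of the 10 genes were called for shIMPA1 against shLuc, shIMPDH2 against shLuc and shIMPA1 against shIMPDH2, and 3508, 1727 and 2909 of all genes, against 8, 2 and 7 and 5361, 3018 and 4627 with it; for shIMPDH2, 38.0% of calls were then higher, against 46.2%. With only the 2 groups compared, 5 of the 10 and 4085 of all genes were called for shIMPA1, 4 and 6382 for shIMPDH2, and 5 and 3422 between the knockdowns. Leaving out 1 library gave 5 to 8, 1 to 4 and 3 to 7 of the 10, and 2147 to 7940, 773 to 6386 and 1430 to 7052 of all genes; a lone library was assumed to vary like the others.

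Sign changes were confined to differences that did not pass with all 6 libraries. SLC1A4 in shIMPA1 (-0.01) became 0.0091 with edgeR and 0.0045 with DESeq2. Leaving out 1 library gave it -0.25 to 0.24, gave SLC38A1 in shIMPA1 -0.18 to 0.023, SLC7A1 in shIMPDH2 -0.085 to 0.15, and SLC1A5 between the knockdowns -0.010 to 0.86.

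Replicate numbers did not pair the libraries: same-numbered deviations correlated at 0.04, -0.05 and 0.00027. With the replicate block, 8, 3 and 7 of the 10 and 5298, 2939 and 4537 of all genes were called; the added call was SLC1A4 in shIMPDH2 (limma adjusted p = 0.0482). On the recovered reads, edgeR called 8, 3 and 7 of the 10 and 5480, 3010 and 4551 of all genes. Counting error weighs most on SLC43A1, with 94.5 normalized reads in its lowest library.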
